A study of Homo sapiens with 97 samples.

Results

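Mid-early islands are short stretches of the U2OS genome that belong to the second earliest of 4 timing classes while the sequence on either side belongs to the next later class. They are local maxima of replication timing. The islands were chosen by the timing class of the deposited intervals: touching intervals of a class were joined into domains, and mid-early domains of at most 1 Mb with a mid-late domain on both sides were kept. This gave 1451 islands among 4950 mid-early domains and 13611 domains of all classes on chromosomes 1 to 22 and X. Because the timing classes chose them, their timing and their neighbours are a description and not a result.

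DNA replication starts at many origins, where the MCM helicase is loaded in G1 phase and activated in S phase. Origins in open, gene-rich chromatin usually fire early, and those in compact chromatin late. Forks move away from each active origin until they meet forks from a neighbouring origin, and the timing of a stretch of DNA reflects both its own origins and those nearby. Nascent strand sequencing (NS-seq) maps short newly made DNA with an RNA primer, which marks places where synthesis began.

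The series followed replication near double-strand breaks in human cell lines, in 97 samples of 50 groups. Replication timing came from untreated wild-type U2OS osteosarcoma cells, with the early and mid-early lists filed under a merged G1 sample and the mid-late and late lists under a merged S sample. The NS-seq list holds merged peaks and is filed under an input sample of untreated AsiSI-U2OS cells, U2OS cells in which the restriction enzyme AsiSI can be switched on. The libraries behind the merged list are not named, so it cannot be told whether they include cells treated with 4-hydroxytamoxifen (4OHT). Break sites are AsiSI motifs that overlap binding of MRE11, a nuclease that resects broken ends, in HCT116 colorectal carcinoma cells. The labels give these cells as LIG4 KO (LIG4 is the ligase that seals breaks by end joining) with AID RAD21, a degradable form of a cohesin subunit, and as having received 300 nM 4OHT for 4 h to induce cutting. Break sites and timing therefore come from different cell lines. All positions are on hg19. A chromosome end here is the first or last position of a chromosome in the timing lists, which need not be its physical end. On chromosome 13 an island starting at 24656901 lay only 5.76 Mb from such a listed end. Each list is pooled, with no value per sample, so there is no replicate error and no test was made. Intervals below are exact 95% intervals that cover counting error only. Peaks lie in clusters, so these intervals are narrower than the true uncertainty. Read depth under the regions is unknown.

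The islands were small. They had a median length of 86.6 kb, with quartiles of 45.5 and 138 kb, and covered 161 Mb, or 5.47% of the listed sequence. They made up 24.5% of the mid-early class, or 28.9% of its domains of at most 1 Mb. The shortest measured 0.1 kb, 11 were under 10 kb, and 17 were over 500 kb. A single deposited interval made up 894 islands (61.6%), 343 consisted of 2 intervals and 214 of 3 or more, with at most 12. The mid-late domains that flanked them were longer, with a median of 136.9 kb, and 1055 islands (72.7%) were shorter than the mean of their 2 flanks. Mid-early dips, the mid-early domains between 2 early domains, had much the same lengths as the islands, with a median of 88.0 kb.

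**Figure D1:**
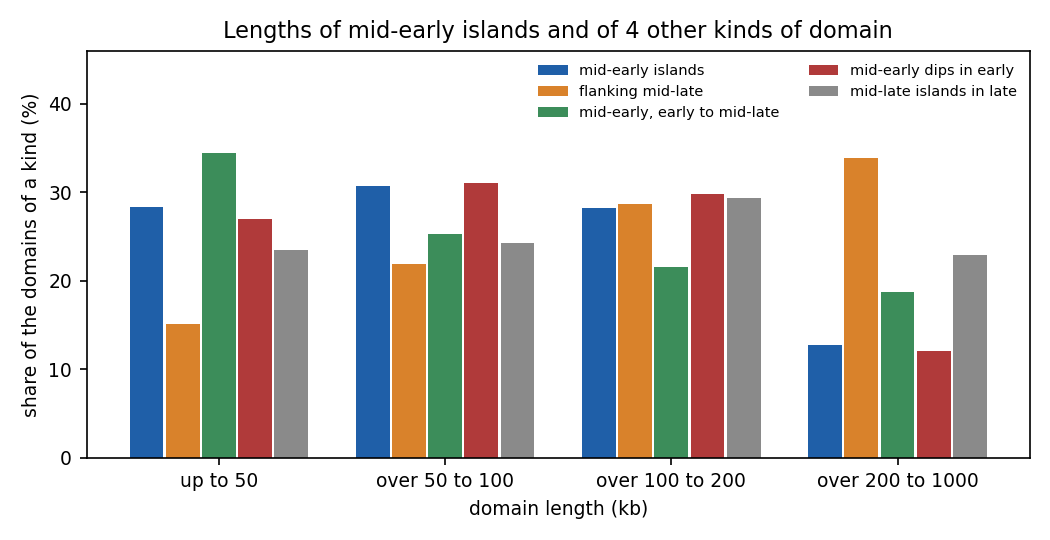
Share of the domains of each kind (y axis, %) in 4 ranges of length (x axis, kb), for mid-early islands, their flanking mid-late domains, mid-early domains between an early and a mid-late domain, mid-early dips between early domains, and mid-late islands between late domains. Islands over 200 kb made up 12.7% of all islands, against 33.9% for the flanking mid-late domains, of which 10 more were over 1 Mb and are not drawn.

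At the upper limit of the rule, the longest island had 980.2 kb and lay on chromosome 2 (90573401 to 91553600). The next longer domain with mid-late neighbours had 1168.2 kb and lay on chromosome X (32460201 to 33628400). Both were a single deposited interval, had late domains beyond both flanks and held 0 NS-seq peaks. In all, 19 mid-early domains between mid-late domains exceeded the limit. They spanned 96.9 Mb with 0 peaks, 18 of them were over 2 Mb, and 17 were a single deposited interval. Whether these long domains carry timing signal or are gaps in it cannot be told from the lists, and the same holds for the island of 980.2 kb.

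Many islands followed each other along a chromosome. No share expected from the order of the timing classes alone was computed, so the runs are a description. Of the 1451, 997 (68.7%) lay in 354 runs of 2 or more islands that were separated by single mid-late domains, and 454 stood alone. The mid-late domain between 2 islands of a run had a median length of 139.9 kb. There were 31 runs of 5 or more. Among the longest were 4 runs of 8 islands. The run on chromosome 1 (116861701 to 119636600) and that on chromosome 3 (40700901 to 43642000) held 0 peaks in their islands. The run on chromosome 9 (137777901 to 139726800) held 6 and that on chromosome 15 (79132401 to 81148100) held 2. In these runs the 2 middle classes alternated over 1.95 to 2.94 Mb.

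What lay beyond the flanking mid-late domains divided the islands by surroundings. For 776 islands (53.5%) it was mid-early sequence on both sides, and for 503 (34.7%) late sequence on 1 side and mid-early on the other. Late sequence lay beyond both flanks of 111 islands (7.65%), which rise out of late-replicating surroundings. Another 59 had an early domain on at least 1 side. For 2, a flanking mid-late domain was the first or last listed domain of its chromosome. Islands with mid-early sequence on both sides were the longest, with a median of 95.6 kb. The median was 75.1 kb with late sequence on both sides, 76.4 kb with late on 1 side and 82.5 kb with an early domain.

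Islands were unevenly distributed over the chromosomes. Chromosome 6 had the most, 125, or 7.31 per 10 Mb, followed in density by chromosome 13 with 7.07 and chromosome X with 6.51. Chromosome 17, with the largest share of early sequence (54.8%), had the fewest for its length, 15 islands or 1.85 per 10 Mb. Chromosome 19 had 19 islands (3.21 per 10 Mb) and chromosome 22 had 13 (3.68 per 10 Mb). Islands took up 8.77% of the listed sequence of chromosome 13 and 1.74% of that of chromosome 17. The numbers per 10 Mb are also over listed sequence, so the order of the chromosomes holds for that measure only.

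Most islands held no listed NS-seq peak. Placed by their midpoints, 228 of 3724 peaks lay in islands, a density of 1.41 peaks per Mb (interval 1.24 to 1.61). This was near the density of 1.26 over all listed sequence (interval 1.22 to 1.30): 6.12% of the peaks lay on the 5.47% of sequence in islands. The peaks fell in 119 islands (8.20%, Clopper-Pearson interval 6.84 to 9.73%), and 1332 islands had 0. Over all domains, which are longer, 13.1% had a peak. A single peak was found in 87 islands, and 32 islands had 2 or more. Those 32 islands held 141 peaks, 61.8% of the total in islands, and the 4 fullest held 55 (24.1%). All listed peaks have a score of at least 10, and weaker signal was not analysed here. From the edge of an island without a peak, the nearest listed peak was 1205 kb away at the median (quartiles 322 and 3223 kb). It was farther than 1 Mb for 731 of these islands and within 100 kb for 145.

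Islands and their flanks did not differ in peaks per Mb beyond counting error when all lengths were pooled. The flanking mid-late domains, each counted once, had 1.34 peaks per Mb (interval 1.24 to 1.45, 593 peaks in 2259 domains). The ratio of islands to flanks was 1.05 (interval 0.900 to 1.23). Without the 4 fullest islands it was 0.823. These were removed for their peak counts, which lowers the island density, and flanks that bordered only them were left out too. The value shows only how much rests on these islands and flanks. At least 1 peak lay in 8.20% of islands and in 12.9% of flanking domains, which are longer. Peak-bearing islands and peak-bearing flanks occurred together. Of 293 islands with a peak in a flank, 27.6% also had a peak inside, against 3.28% of the 1158 islands without one. A peak in any of the 643 flanking domains shared by 2 islands counted for both. This contrast was not divided by place. A peak lay in 44.0% of flanking domains centred within 5 Mb of a chromosome end and in 8.69% of those farther inside. Peaks were absent from both island and flanks in 1120 cases, present in both in 81, present only in the island in 38 and only in a flank in 212.

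Other mid-early sequence was denser in peaks than the islands. Mid-early domains of at most 1 Mb that are not islands had 2.31 peaks per Mb (interval 2.16 to 2.47), so the islands reached 0.611 of that density (interval 0.526 to 0.707). Within the mid-early class the density went with the neighbours. It was 3.04 per Mb (interval 2.79 to 3.32) in the dips between early domains, 1.78 (1.61 to 1.96) between an early and a mid-late domain, and 1.41 in the islands. Mid-late islands between late domains, which are also local timing maxima but a class later, had 0.545 peaks per Mb (interval 0.442 to 0.664). Mid-late dips between mid-early domains, of a later class than the islands, had 1.99, and the ratio of islands to these was 0.711 (interval 0.606 to 0.831). Many of these 1825 dips also flank islands, so this comparison is not separate from that with the flanks. The 643 flanking domains shared by 2 islands lie between mid-early domains and, at up to 1 Mb, count as dips. The kinds of domain are spread unequally over chromosomes of different peak density. At each chromosome's own density of other mid-early domains the islands would hold 309 peaks, and the observed 228 are 0.737 of that. At the density of their flanks on the same chromosome they would hold 210 peaks (observed over expected 1.08). At the density of dips on the same chromosome they would hold 388 (0.588). For domains between an early and a mid-late domain it would be 250 peaks (0.912), much nearer to the observed number.

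Peaks in islands were concentrated near chromosome ends. Only 172 islands (11.9%) had their centre within 5 Mb of a chromosome end, yet they held 142 of the 228 peaks (62.3%), or 6.91 peaks per Mb (interval 5.82 to 8.14). The 1279 islands farther inside held 86 peaks, or 0.611 per Mb (interval 0.488 to 0.754). At least 1 peak lay in 32.6% of the islands near an end and in 4.93% of those farther inside. This division by place was made with the data in view, and it applied to the other kinds of domain as well.

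**Figure D2:**
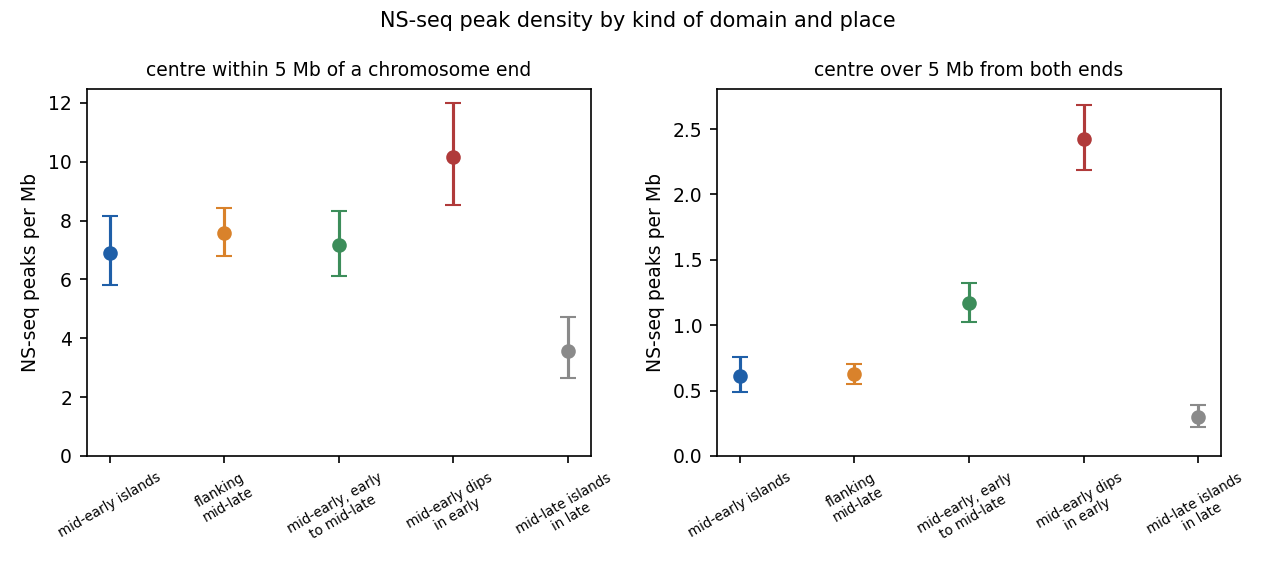
NS-seq peaks per Mb (y axis, a separate scale in each panel) for 5 kinds of timing domain, with centres within 5 Mb of a chromosome end (left) or over 5 Mb from both ends (right). Points are densities and bars exact 95% Poisson intervals, which cover counting error only; farther inside, islands (0.611) and flanks (0.623) lie together, below the dips (2.43).

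Near chromosome ends the islands did not differ from other mid-early domains beyond counting error, with 7.90 peaks per Mb in the latter and a ratio of 0.874 (interval 0.711 to 1.07). Farther inside the ratio was 0.357 (interval 0.282 to 0.448), against 1.71 peaks per Mb in other mid-early domains. The islands were the less dense of these on 19 of 23 chromosomes there, the denser on 3, and both had 0 on 1. Against their own flanks the ratio was 0.912 near ends (interval 0.745 to 1.11) and 0.980 farther inside (interval 0.758 to 1.26). The difference between the 2 places in the ratio to other mid-early domains was not tested. With the limit set at 2 Mb from an end in place of 5 Mb, the ratio farther inside was 0.526.

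The end of chromosome 8 with the highest coordinates contributed most. Its 6 islands within 5 Mb held 33 peaks in 0.863 Mb. The corresponding end of chromosome 20 had 4 islands with 24 peaks in 1.30 Mb, and that of chromosome 16 had 8 islands with 13 peaks in 1.91 Mb. These 3 ends held 49.3% of the peaks in islands near ends. The 154 islands at other ends still had 4.37 peaks per Mb. Of 41 listed ends with an island in reach, 27 had a peak in at least 1 island and 14 had none. Among the latter was the first listed end of chromosome 13, with 5 islands, which is not a physical chromosome end. At the end of chromosome 9 with the highest coordinates, 7 of 12 islands held a peak.

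The ratio to the flanks was not the same at all lengths. Over all places, islands over 200 kb had 1.85 peaks per Mb (interval 1.52 to 2.23), against 1.09 (0.594 to 1.82) up to 50 kb, 0.988 (0.680 to 1.39) for 50 to 100 kb and 1.29 (1.01 to 1.62) for 100 to 200 kb. The flanks went the other way, with 0.997 (0.885 to 1.12) over 200 kb, 1.92 (1.19 to 2.93) up to 50 kb, 2.36 (1.89 to 2.90) for 50 to 100 kb and 2.10 (1.82 to 2.42) for 100 to 200 kb. Islands were thus denser than flanks of like length over 200 kb and sparser between 50 and 200 kb. The 4 fullest islands, all over 200 kb, held 55 of the 109 peaks in that range. The higher density there therefore rests largely on a few islands. Of the 109 peaks in islands over 200 kb, 24 lay farther than 5 Mb from chromosome ends. Farther than 5 Mb from the ends the same 4 ranges, from the longest to the shortest, had 0.477, 0.750, 0.578 and 0.678 peaks per Mb, and their intervals overlapped. Flanks there had 0.499, 0.752, 1.38 and 0.936, and only for 50 to 100 kb did the intervals of islands (0.336 to 0.925) and flanks (1.01 to 1.85) not overlap. In each of these ranges the dips between early domains were denser, with 2.13, 1.83, 3.74 and 2.77 peaks per Mb.

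Over all places, islands with late sequence beyond both flanks had few peaks. They had 3 peaks in 9.80 Mb, or 0.306 per Mb (interval 0.0631 to 0.895). Those with late sequence on 1 side had 1.38 per Mb (1.07 to 1.73) and those with mid-early sequence on both sides 1.46 (1.22 to 1.72). The 59 islands with an early domain beyond a flank had 2.99 per Mb (1.74 to 4.79), from 17 peaks in 8 islands. Of these 17 peaks, 9 lay in a single island on chromosome 21. The flanks had 0.996 peaks per Mb around islands with late sequence on both sides, 0.927 with late on 1 side, 1.87 with mid-early on both sides and 1.29 with an early domain. Farther than 5 Mb from the ends, islands with late sequence on both sides had 2 peaks, or 0.241 per Mb (interval 0.0292 to 0.871). Those with late on 1 side had 0.663 (0.447 to 0.946) and those with mid-early on both sides 0.596 (0.441 to 0.787), so the 3 did not differ beyond counting error there.

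Chromosomes with dense flanks also had dense islands. Over the 23 chromosomes the 2 densities had a Pearson's r of 0.80 and a Spearman's rho of 0.70, given as a description, since both come from a single peak list. Islands were the denser on 11 chromosomes and the flanks on 12. The highest island densities were on chromosomes 8 (6.22 peaks per Mb, interval 4.46 to 8.44), 22 (5.82, interval 2.34 to 11.98), 20 (5.40, interval 3.53 to 7.91) and 19 (5.10, interval 2.44 to 9.37). On chromosome 8 the other mid-early domains had only 0.934 per Mb, so there the order of the 2 kinds was turned. Chromosome 14 islands (4.36 per Mb, 17 peaks in 10 islands) also exceeded other mid-early domains of that chromosome (1.04 per Mb).

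**Figure D3:**
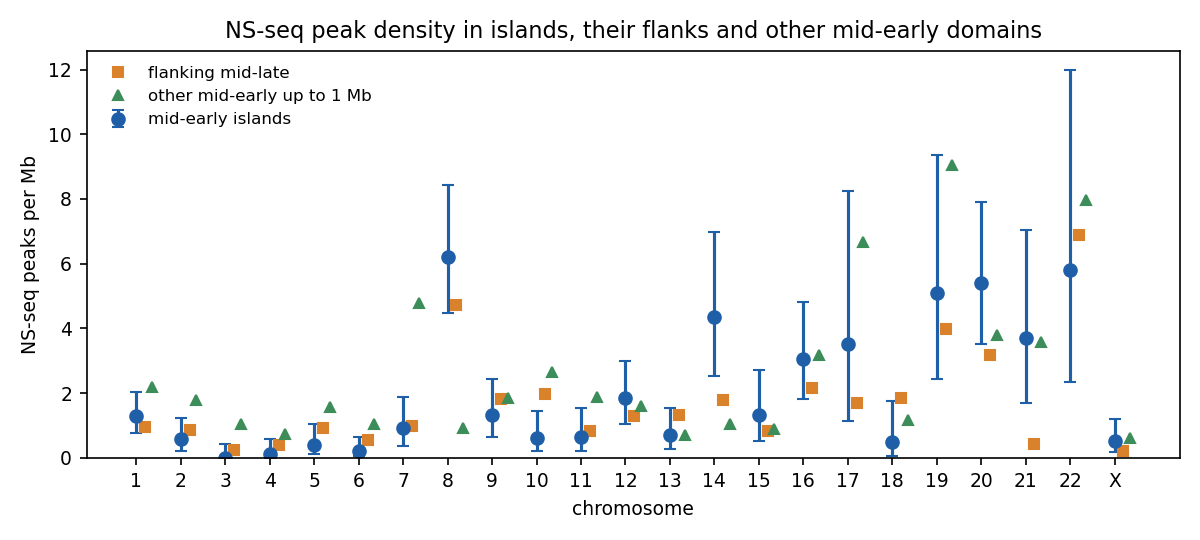
NS-seq peaks per Mb (y axis) on each chromosome (x axis) in mid-early islands (circles, with exact 95% Poisson intervals that cover counting error only), in their flanking mid-late domains (squares) and in other mid-early domains of at most 1 Mb (triangles). Islands reach 6.22 on chromosome 8 and 0 on chromosome 3, and triangles lie above circles on 17 of 23 chromosomes.

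Several large chromosomes had few or no peaks in islands. Chromosome 3 had 0 in 73 islands of 8.76 Mb together, which allows up to 0.342 per Mb (3 counts). Chromosome 4 had 1 in 79 islands, chromosome 6 had 3 in 125 islands and chromosome X had 5 in 101 islands. The flanks on chromosomes 3, 4, 6 and X were sparse too, with 0.232, 0.405, 0.542 and 0.208 peaks per Mb. Other mid-early domains there had 1.04, 0.726, 1.04 and 0.621. On chromosome X the islands, with 0.508 per Mb, were denser than their flanks. Chromosome 7, whose other mid-early domains had 4.79 peaks per Mb, had 0.916 in its islands. Its 4 windows of 1 Mb with more than 20 peaks had 0 of those peaks in islands. No island was centred within 5 Mb of the low-coordinate end of chromosome 7. For the windows from position 1 to 3000000, the 0 thus follows from the lack of islands there. Farther than 5 Mb from the ends, chromosome 7 had 0.562 peaks per Mb in islands and 1.73 in other mid-early domains.

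Peaks were not gathered at the centres of islands. Measured from 0 at the centre to 1 at the edge, the median position was 0.497 (quartiles 0.202 and 0.804), where an even spread gives 0.5. Of 3 equal parts from centre to edge, the innermost held 81 peaks (35.5%), the next 61 (26.8%) and the outermost 86 (37.7%). Without the 4 fullest islands the median was 0.490 for 173 peaks. Across the island edge the density did not step up towards the inside. The outermost 25 kb of islands had 1.28 peaks per Mb (interval 1.02 to 1.59), and the first 25 kb of the flanks had 1.64 (interval 1.36 to 1.97). Between 75 and 100 kb inside, where only larger islands reach, the density was 1.70 (interval 1.05 to 2.60).

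**Figure D4:**
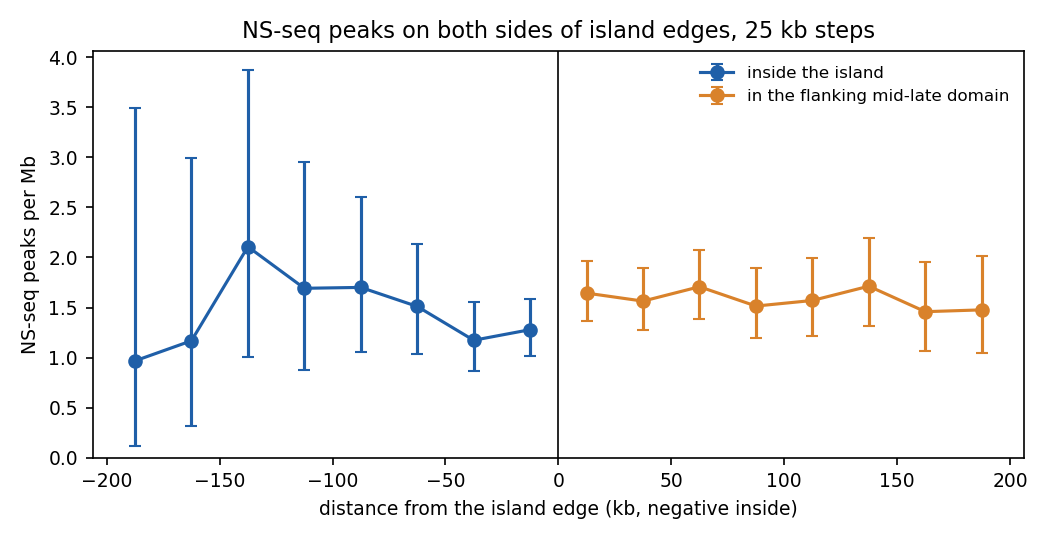
NS-seq peaks per Mb (y axis) in steps of 25 kb by distance from the island edge (x axis, kb, negative inside the island and up to its centre, positive in the flanking mid-late domain). Points are densities over both sides of all islands, a flank shared by 2 islands counting for each, and bars are exact 95% Poisson intervals; values run from 0.968 to 2.11 inside and from 1.46 to 1.71 outside.

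Within an island, neighbouring peaks lay close together. The 109 pairs of neighbours had a median spacing of 20.4 kb (quartiles 5.90 and 52.6 kb), from 0.674 kb, where the 1000 bp peaks overlap, to 405 kb. The authors' score, deposited with no stated scale, was much the same in islands as elsewhere. Its median was 12.1 in islands (quartiles 10.8 and 14.5), 12.02 in the flanks, 11.6 in other mid-early domains and 11.8 over all peaks. Scores in islands near chromosome ends had a median of 12.01 and those farther inside 12.3.

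The island with the most peaks lay on chromosome 20 (61058001 to 61965300, 907.3 kb, joined from 9 intervals), 1.51 Mb from the end. It held 20 peaks, or 22.04 per Mb, and its flanks held 7 and 11. Its peaks did not fill it evenly. The highest scoring peak in any island (61084473 to 61085472, score 22.4) stood apart at 27.0 kb from an edge. A pair with scores of 18.5 and 18.6 (61617388 to 61618387 and 61624412 to 61625411) lay 106 and 113 kb from the centre. Towards the opposite edge, 12 peaks followed between 61731880 and 61947345, with scores from 10.0 to 14.8.

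Chromosome 8 had 3 of the 10 fullest islands. The first (143701001 to 144017500, 316.5 kb) held 14 peaks, and only 21.2 kb of mid-late sequence separated it from the next (144038701 to 144328800, 290.1 kb), with 12. The third (144723901 to 144902300, 178.4 kb) had 6 peaks. Their flanks were denser still, with 69.8, 60.1 and 67.4 peaks per Mb against 44.2, 41.4 and 33.6 inside. These islands thus lay in a stretch where peaks were dense in both timing classes.

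On chromosome 21 an island of 233.5 kb (45628001 to 45861500) differed from that pattern. It held 9 peaks, or 38.5 per Mb, and its flanks of 23.3 and 130.0 kb held 0 and 2, or 13.0 per Mb. Its highest score was 22.1 (45815686 to 45816685), the second highest among the 10 fullest islands. It was the only island of chromosome 21 with a peak, out of 23. A similar excess over the flanks was seen on chromosome 14 (106124401 to 106236300, 6 peaks, 53.6 per Mb inside and 21.7 in the flanks). On chromosome 12 an island of 64.1 kb (132932401 to 132996500) had 4 peaks, 3 of them within 5 kb of its centre, and 62.4 per Mb against 13.9 in its flanks. The remaining islands of the 10 lay on chromosomes 1, 13 and 19. That on chromosome 1 (1328801 to 1782400) held 5 peaks. That on chromosome 13 (113151001 to 113391800) held 4, and 6 were found in that on chromosome 19 (38736301 to 38891100).

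**Figure D5:**
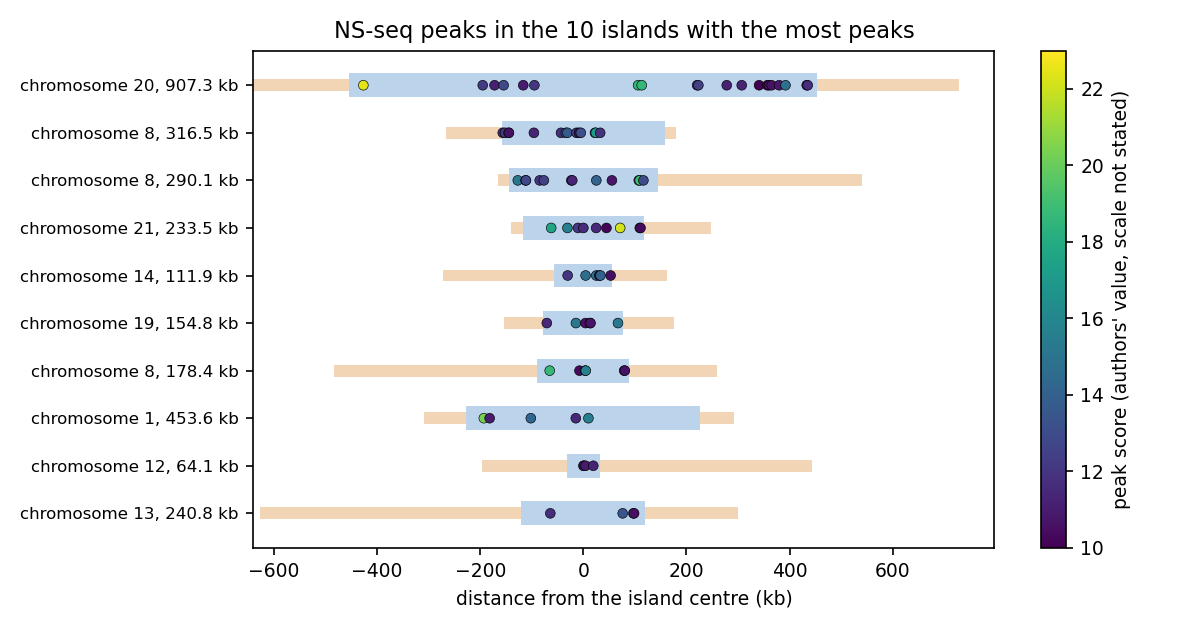
The 10 islands with the most NS-seq peaks, each drawn to scale by distance from its centre (x axis, kb), with the island as a broad bar and its flanking mid-late domains as narrow bars. Points are the peaks inside the island, coloured by the authors' score; the top island, on chromosome 20, has 20 peaks and the bottom ones, on chromosomes 12 and 13, have 4 each.

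Since 3 islands tied at 4 peaks, 11 islands had at least 4, and 9 of them lay within 3 Mb of a chromosome end. The others were an island on chromosome 12 (113551601 to 114200700, 649.1 kb), 19.98 Mb from an end, and that on chromosome 19, 20.3 Mb from the end, which had the most peaks of all islands farther inside. Of the 1279 islands farther inside, 50 had a single peak and 13 had 2 or more. The island on chromosome 12 was also among the 5 longest, and its lowest score was 11.9.

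Some of the longest islands had no listed peak. Besides the island of 980.2 kb on chromosome 2, whose flanks held 4 and 0 peaks, they lay on chromosome 13 (77651301 to 78325200, 673.9 kb) and on chromosome 9 (93767601 to 94435600, 668.0 kb). The last 2 were joined from 9 and 8 intervals, and their flanks also held 0 peaks. They lay 37.2 and 47.1 Mb from a chromosome end, with late sequence beyond 1 flank.

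The islands contained 9 of the 129 AsiSI sites bound by MRE11 in HCT116 cells (6.98%, Clopper-Pearson interval 3.24 to 12.8%). This is 0.0558 sites per Mb (interval 0.0255 to 0.106). The flanking mid-late domains had 24 sites, or 0.0543 per Mb (0.0348 to 0.0808), other mid-early domains of at most 1 Mb had 25, or 0.0630 per Mb (0.0408 to 0.0930), and all listed sequence had 0.0437. With 9 sites a difference among these could not be detected. Mid-late islands between late domains had 2 sites, or 0.0111 per Mb (0.00135 to 0.0402). No site lay in an island with late sequence beyond both flanks, which allows up to 0.306 per Mb (3 counts). None lay in the 411 islands up to 50 kb either, which allows up to 0.233 per Mb.

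The islands with a break site were longer than most, with a median of 154.8 kb and a range from 69.7 to 548.4 kb. A longer island has more room for a site. The largest were on chromosome 6 (27266501 to 27814900, site at 27661900 to 27661907) and chromosome 5 (42731301 to 43273100, site at 43041612 to 43041619). A further site on chromosome 6 (21594704 to 21594711) lay 34.1 kb inside the edge of an island of 385.3 kb. In these 3 islands and their flanks there were 0 peaks, and the nearest peaks were 4560, 7332 and 10628 kb from the sites.

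Origins mapped near a break in only a few of these islands. At the site 38827326 to 38827333 on chromosome 19 a peak (38827136 to 38828135, score 10.7) covered the site itself, in the island with 6 peaks described above. On chromosome 10 the site at 3110977 to 3110984 lay near the centre of an island of 296.2 kb, 37.5 kb from the only peak of that island (score 12.5). For the other 7 sites the island held 0 peaks. On chromosome 16 the site at 89118957 to 89118964 was 39.8 kb from a peak in the mid-late flank, and that at 71929336 to 71929343 was 269 kb from a mid-early peak. On chromosome 8 the site at 125633403 to 125633410 was 62.2 kb from a peak in mid-late sequence. The site on chromosome 13 (24734908 to 24734915) lay close to the centre of an island of 149.2 kb, 2430 kb from the nearest peak.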

How the data were processed

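Timing domains, NS-seq peaks and break sites were read from 6 deposited lists of regions. Per the submitters' processing notes, the genome build was hg19 and MACS2 was among the tools, without further detail. Methods for alignment, filtering and division into timing classes were not given in the sources used here. Each NS-seq peak carries a deposited score, set by the authors without a stated scale. Read depth is unknown.

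With Python 3.11.15, numpy 2.4.6 and scipy 1.17.1, intervals of a class that touch were joined, with 0 gaps between intervals. Peaks and sites were placed by their midpoints. Densities have exact Poisson intervals, ratios exact conditional intervals and shares Clopper-Pearson intervals, at 95%. A limit for a count of 0 uses 3 counts. Joining, the island rule and the ratio were tested on simulated data. Alternatives to the size limit, the overlap rule, the score and the chromosomes used were tried. The members, the division by chromosome end and the comparisons were chosen with earlier results of these data known. Named islands are the 10 with the most peaks, the 5 longest, the 3 longest without a peak, those with a break site, that with the highest score and the domains beside the 1 Mb limit. Gene annotation and sequence on hg19 were not used here. Chromosome Y and mitochondrial DNA were left out of the comparisons.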

Additional observations from a re-analysis of the deposited data

How the results depend on the processing

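Of 144 alternative values for 5 densities, ratios and shares, 128 lay within the counting interval of the reported value and 16 outside it. The 11 for the plain counts lay within 1.5 times the reported count: 1041 to 1470 islands, with 1041 for islands of at least 50 kb and 1074 for flanks of at least 50 kb, and 7 to 9 break sites. The density of 1.41 peaks per Mb in islands was 0.883 with no size limit, 0.762 with peaks at or above the median score of 11.8, 1.18 with peaks within 10 kb joined into zones, 1.09 without windows of 1 Mb holding more than 20 peaks, 1.21 without chromosome 8 and 1.08 without the 4 fullest islands. The ratio to the flanks was 0.658 (interval 0.562 to 0.768) with no size limit. Without the 4 fullest islands, and without the flanks that bordered only these, it was 0.823 (interval 0.690 to 0.977). Both intervals lay below 1, whereas the reported ratio was 1.05 (interval 0.900 to 1.23). Over all settings this ratio ran from 0.658 to 1.11. The ratio to other mid-early domains was 0.385 with no size limit, 0.507 without chromosome 8 and 0.469 without the 4 fullest islands. It stayed below 1 in every setting, at most 0.701. Over 5 Mb from chromosome ends that ratio was 0.216 with no size limit, 0.464 with peaks at or above the median score and 0.526 with the end distance at 2 Mb. The share of islands with a peak was 10.2% for islands of at least 50 kb and 5.10% for peaks at or above the median score. With no size limit the 96.9 Mb of longer domains, which hold 0 peaks and may be gaps in the timing signal, enter the islands. These values therefore cannot show whether the results depend on island size. For the other settings the cause was not tested beyond what they leave out. Leaving out the 4 fullest islands and the end distances were chosen after seeing the data. Without any single chromosome the density ran from 1.21 to 1.52, the ratio to the flanks from 1.00 to 1.11, the ratio to other mid-early domains from 0.507 to 0.665 and that ratio away from ends from 0.325 to 0.377. No paired analysis was possible because the deposited lists pool samples. Unknown depth limits what an island with 0 peaks shows.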

Other observations

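On chromosome Y, left out of the comparisons, the same rule picked 13 domains over 2.03 Mb, with 1 NS-seq peak and 0 break sites. Whether the cells carry a chromosome Y was not checked, so these domains are not read as timing islands of U2OS cells.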
